A study of Mus musculus with 3 samples.

Results

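The genes described here were the laminin chains and integrin subunits of the mouse genome as listed in single-cell RNA sequencing of the pituitary. They were chosen by name alone, as the symbols made of Lama, Lamb or Lamc and a digit, or of Itga or Itgb and a suffix, without the names that begin with Itgb1bp or Itgbl. The rule took 39 of 55293 gene symbols. Of these, 36 had 50 or more counts over all cells: 11 laminin chains, 24 integrin subunits and Itgb3bp. Itgb3bp met the rule by its spelling, but it encodes a nuclear protein first found as a binding partner of an integrin tail and no subunit, so it is described apart. The remaining 3 were Itga7 with 28 counts, Itgad with 6 and Itgb2l with 4, and they entered no comparison other than a count made without a minimum of counts. The groups were TpitWT, TpitHT and TpitKO mice, with 1 library of dissociated whole pituitaries for each genotype. Tbx19 encodes Tpit, a T-box factor that corticotropes and melanotropes of the pituitary need to express Pomc. How the allele was made, what HT abbreviates, and the strain, age and number of mice in each library are not given in the sources used here. Sorted living cells were loaded on 3′ droplet reagents. With 1 library per genotype there was no replicate check and no test, and the intervals given below cover counting error only.

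Laminins are cross-shaped proteins of the basement membrane, each built from an alpha, a beta and a gamma chain. They polymerise into the sheet on which epithelial and endothelial cells rest, and the alpha chain carries the main binding sites for cells. Integrins are receptors of an alpha and a beta subunit that hold cells to laminins, collagens, fibronectin or other cells, with the alpha subunit setting most of the preference for a ligand. In the anterior pituitary, basement membranes separate the cords of hormone cells from the capillaries, and integrins of the Itgb2 family are carried by leukocytes.

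Promoter sequences are shown for a pair of genes with their highest level in the fibroblast-like cluster, Lama2 and Lamb1, and for a pair of leukocyte integrin genes on 1 stretch of chromosome 7, Itgam and Itgax. Each run is the RefSeq promoter on GRCm38.p6, from 250 bases before to 50 after the gene's RefSeq start, 5′ to 3′ on the gene's own strand. Capitals mark matches to any of 6 strings, searched on both strands. The GC box was searched as GGGCGG, and the TATA box of core promoters as TATAAA. The CCAAT box was searched as that string, and the core bound by the leukocyte factor PU.1 as GAGGAA. The half-site of the gonadotrope factor SF-1 was searched as AAGGTCA, and the half-site of T-box factors such as Tpit as GGTGTG. Lama2 is read from chr10:27616893-27617192 on the minus strand, and Lamb1 from chr12:31265043-31265342, Itgam from chr7:128062390-128062689 and Itgax from chr7:128129300-128129599 on the plus strand.
Lama2: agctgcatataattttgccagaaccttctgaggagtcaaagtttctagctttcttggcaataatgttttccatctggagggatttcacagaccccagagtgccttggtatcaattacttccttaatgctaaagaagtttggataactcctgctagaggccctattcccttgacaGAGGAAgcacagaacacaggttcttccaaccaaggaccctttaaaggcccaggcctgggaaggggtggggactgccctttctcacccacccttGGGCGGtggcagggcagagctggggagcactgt
Lamb1: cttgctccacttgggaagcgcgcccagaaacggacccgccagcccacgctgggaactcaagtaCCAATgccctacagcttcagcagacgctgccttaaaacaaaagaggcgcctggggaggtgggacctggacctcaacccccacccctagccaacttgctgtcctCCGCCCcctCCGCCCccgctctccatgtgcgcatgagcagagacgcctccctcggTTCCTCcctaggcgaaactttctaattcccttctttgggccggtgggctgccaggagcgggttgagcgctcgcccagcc
Itgam: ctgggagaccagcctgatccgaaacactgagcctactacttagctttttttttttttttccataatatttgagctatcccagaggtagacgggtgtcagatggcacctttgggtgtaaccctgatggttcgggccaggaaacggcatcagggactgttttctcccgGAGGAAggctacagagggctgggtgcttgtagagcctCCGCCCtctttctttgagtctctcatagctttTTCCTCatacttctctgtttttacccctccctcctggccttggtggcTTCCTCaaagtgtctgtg
Itgax: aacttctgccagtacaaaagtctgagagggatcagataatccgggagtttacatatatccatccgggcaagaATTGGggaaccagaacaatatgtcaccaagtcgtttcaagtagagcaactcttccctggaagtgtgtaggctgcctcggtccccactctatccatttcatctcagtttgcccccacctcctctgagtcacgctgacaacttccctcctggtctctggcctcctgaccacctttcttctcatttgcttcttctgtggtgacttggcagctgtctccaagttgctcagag
Of the 39 members, 25 had a promoter in the table. Where a member had more than 1 promoter only the first listed was counted, whereas the share of all promoters takes every listed one. The PU.1 core was found in 13 of these 25 and in 28.3% of 32851 promoters of the same length, the GC box in 11 against 35.7%, the T-box half-site in 4 against 19.05%, and the CCAAT box in 3 against 37.4%. The TATA box and the SF-1 half-site were found in 0 of the 25, against 13.6% and 4.72% of all promoters. Lama2 and Lamb1 each hold 1 PU.1 core and Itgam holds 3, and in Itgax only a CCAAT box on the minus strand was marked. No 2 marked matches overlap. A match is a string of letters in this window and not a site of binding.

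The libraries held 11222 TpitWT, 12839 TpitHT and 13413 TpitKO cells, with 9561, 11869 and 9935 counts per cell on average. Between 36 and 40 cell barcodes were shared by each pair of libraries. Tbx19 was at 17.6, 12.4 and 0.690 CPM (counts per 1000000 counts of the library) in TpitWT, TpitHT and TpitKO, in the order kept throughout, and Pomc at 21846, 22576 and 58.3 CPM. The deposited clusters are numbered 0 to 20 and carry no cell type names, so they were named from markers. Outside the hormone cells these were the fibroblast-like cluster 15, the endothelial-like cluster 9, the macrophage-like clusters 8 and 19, the leukocyte-like cluster 16, which immunoglobulin genes lead, the stem-cell-like cluster 10 and the pituicyte-like cluster 18. Clusters 0 and 4 were lactotrope-like and clusters 1, 2 and 5 somatotrope-like. Cluster 14 was thyrotrope-like, cluster 3 gonadotrope-like, cluster 7 melanotrope-like and cluster 6 corticotrope-like, and 5 clusters stayed unnamed. The makeup differed between the libraries. TpitKO had no cells in clusters 6 and 7 and 17 in cluster 2, against 1081, 730 and 2081 in TpitWT, and the gonadotrope-like share was 4.001% of cells in TpitWT, 4.91% in TpitHT and 12.4% in TpitKO. The endothelial-like share was 1.84%, 2.19% and 4.12%, and the fibroblast-like share 0.508%, 0.771% and 1.07%.

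The laminin alpha chains were spread differently over the clusters, with overlaps in the fibroblast-like, endothelial-like and stem-cell-like ones. Levels within a cluster are CPM of all counts of that cluster over the 3 genotypes, and they describe the cells that the clusters were made from. Lama2, the alpha chain of muscle and mesenchymal basement membranes, was at 423 CPM in the fibroblast-like cluster, which held 94.0% of its counts. Lama1, the alpha chain of early embryonic basement membranes, had 80.8% of its counts in the gonadotrope-like cluster, at 29.2 CPM, and was at 50.1 CPM in the fibroblast-like cluster. Lama4, a chain of vessel walls, was at 113 CPM in endothelial-like and 82.5 CPM in fibroblast-like cells. Lama5, the chain of mature epithelial and vascular basement membranes, was at 55.5 CPM in the pituicyte-like, 48.6 CPM in the stem-cell-like and 33.6 CPM in the endothelial-like cluster. Lama3, the alpha chain of epithelial anchoring complexes, was at 15.99 CPM in stem-cell-like cells, and the somatotrope-like cluster 2 held 32.5% of its counts at 3.28 CPM.

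The beta and gamma chains followed the same few clusters. Lamb1, the widely used beta chain, was at 302 CPM in fibroblast-like, 37.1 in endothelial-like and 11.2 in gonadotrope-like cells. Lamb2, its counterpart in mature tissue, was at 124 CPM in fibroblast-like and 93.3 CPM in stem-cell-like cells, and the latter held 51.4% of its counts. Lamc1, the gamma chain of most laminins, was present in every cluster but 20, from 3.25 to 184 CPM, with the highest level in fibroblast-like cells, 130 in endothelial-like, 98.7 in pituicyte-like, 58.4 in stem-cell-like and 26.9 in gonadotrope-like cells. Lamc3 had 90.5% of its counts in fibroblast-like cells, at 218.5 CPM. Lamb3, a beta chain that assembles with Lama3, had its highest level in stem-cell-like cells, at 9.50 CPM, although the lactotrope-like cluster 0 held 46.1% of its counts.

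Itgb1, the beta subunit that pairs with most alpha subunits, was detected in 63.7% of fibroblast-like and 51.9% of endothelial-like cells, at 294 and 260 CPM. In the lactotrope-like cluster 0 it was found in 64.0% of cells at 140 CPM, and it had counts in every cluster. The laminin receptor subunit Itga6 was at 269 CPM in endothelial-like, 83.5 and 75.2 CPM in the macrophage-like clusters 19 and 8, 68.2 CPM in stem-cell-like and 23.6 CPM in melanotrope-like cells. Itga3, also a laminin receptor, ranged more narrowly, with 24.6 CPM in endothelial-like, 22.0 in corticotrope-like and 12.6 in lactotrope-like cluster 0. Itgb4, the partner of Itga6 in hemidesmosomes, had 102 counts in all, too few to place it.

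Among collagen receptors, Itga1 was at 185 CPM in endothelial-like cells, which held 60.3% of its counts, and at 89.98 CPM in fibroblast-like and 54.4 CPM in leukocyte-like cells. Its neighbour Itga2 lies 20.996 kb away on the same strand of chromosome 13 and was at 4.89 CPM in corticotrope-like and 2.61 CPM in gonadotrope-like cells, which together held most of its 227 counts. Itga11 had 52.5% of its 158 counts in gonadotrope-like cells, and the 192 counts of Itga10 were spread thinly. Of the subunits that bind the RGD motif of fibronectin and vitronectin, Itga8 was at 50.1 CPM in fibroblast-like, Itga5 at 35.0 CPM in endothelial-like, and Itgav at 74.0 CPM in pituicyte-like and 51.7 CPM in macrophage-like cluster 8. Itga2b, the alpha subunit of platelets, was at 12.9 CPM in fibroblast-like and 10.3 CPM in melanotrope-like cells. Itgb5, a partner of Itgav, stood at 659 and 372 CPM in the macrophage-like clusters 19 and 8. Itgb8, a partner of Itgav that activates latent TGF-beta, was at 58.9 CPM in stem-cell-like and 36.5 CPM in macrophage-like cluster 8, while hormone clusters held 66.4% of its counts. Itgb6 had 36.4% of its 302 counts in gonadotrope-like cells and 18.2% in the unnamed cluster 11, and Itgb3 had 139 counts in all.

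Most of the leukocyte subunits had a sharper pattern. Itgb2 was at 141 CPM in leukocyte-like, 106 in macrophage-like cluster 19 and 45.0 in cluster 8, against 0.0781 CPM over the 9 hormone clusters, where 0.0701% of 31394 cells had a count (95% interval 0.0439% to 0.106%). Median depth was not available, and mean depth was 11427 counts per hormone cell, above that of the leukocyte clusters. Itgam was at 298 CPM in cluster 19, which is led by P2ry12 and Siglech, genes of microglia and related macrophages. Itgax, the subunit of dendritic cells, was at 44.6 CPM in leukocyte-like cells and 36.9 CPM in cluster 8, which held 68.9% of its counts. The lymphocyte subunits Itgb7, Itga4 and Itgal stood at 154, 147 and 99.9 CPM in leukocyte-like cells, and Itga4 also at 44.8 CPM in cluster 8. Itgae, which pairs with Itgb7 on intraepithelial lymphocytes, was at 38.2 CPM there, but 63.8% of its counts were in the lactotrope-like cluster 0 at 2.43 CPM. Itgal was less confined too, with 26.2% of its counts in leukocyte-like cells and 15.3% in somatotrope-like cluster 5 at 2.24 CPM. Itga9 was at 48.3 CPM in macrophage-like cluster 8, 36.6 CPM in endothelial-like and 25.7 CPM in fibroblast-like cells.

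**Figure D1:**
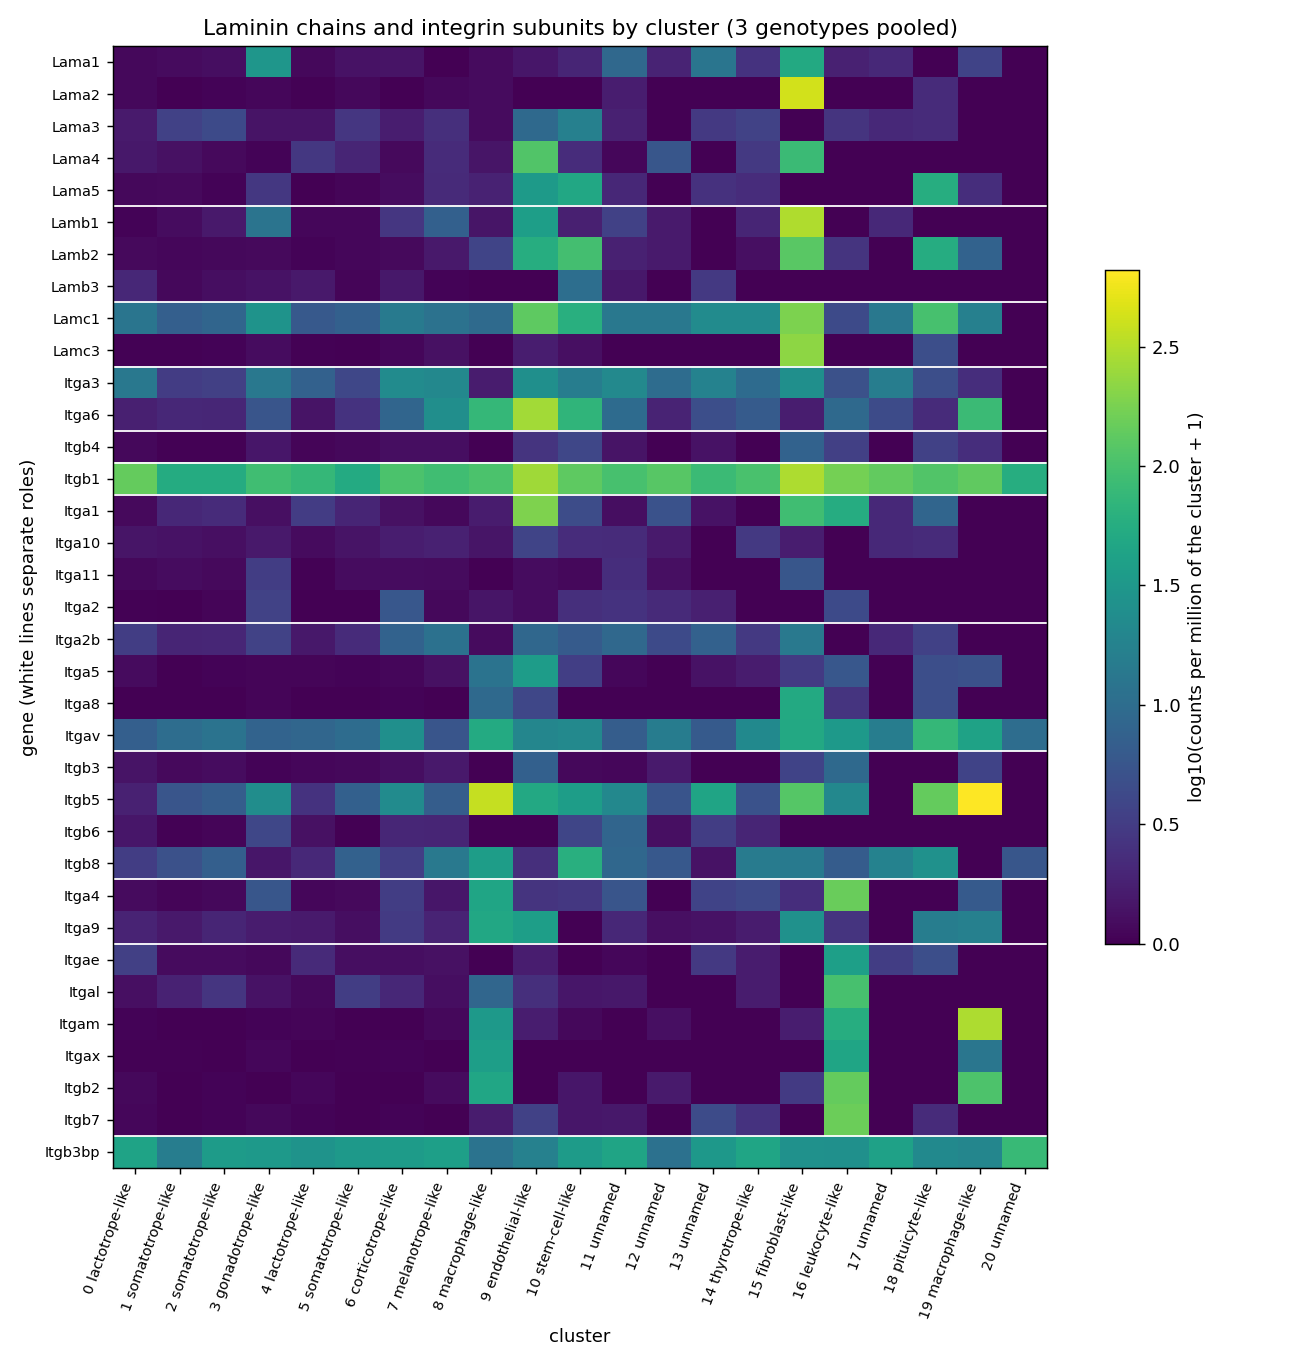
Level of the described genes in the 21 clusters over the 3 genotypes, as log10 of CPM of the cluster plus 1, with rows grouped by role. Lama2 and Lamc3 are bright in fibroblast-like cluster 15 alone, and Itgb1 across the whole width. Itga6 and Itga1 are brightest in endothelial-like cluster 9 but not bright there alone, and the leukocyte rows are brightest in cluster 16 or 19.

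Over all cells, the summed laminin chains were higher in TpitKO than in either other library. The 11 chains together were at 27.2 CPM in TpitWT, 29.8 in TpitHT and 45.7 in TpitKO, a TpitKO to TpitWT ratio of 1.68 (1.61 to 1.76). The 24 integrin subunits with the rare ones added were at 160.0, 151.1 and 169.5 CPM, a ratio of 1.06 (1.04 to 1.08), which turned to 0.971 when hormone and mitochondrial counts were left out of the totals. That change of total moved the median of all genes by -0.13 on the log2 scale. When each cluster was given its TpitWT share of counts, the laminin ratio was 1.12 and the integrin ratio 0.961. This weighting used the 16 clusters with at least 20 cells in both genotypes, which held 59.1% of TpitWT and 99.3% of TpitKO counts, and over the same clusters without weights the ratios were 1.31 and 0.929.

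Of the 36 genes, 9 were at least 2-fold higher in TpitKO than in TpitWT: Lama1, Lama2, Lama4, Lama5, Lamb1, Lamb2, Itgam, Itgax and Itgb6. Over all 21791 genes with 50 counts in both genotypes together, 5.79% were. Only Itga2 was at least 2-fold lower, against 2.55% of all genes. With the weighting, Itgax alone of the 36 remained 2-fold higher (2.30% of all genes were), and with a pseudocount of 1 CPM Lama1 alone did. The median of the 36 was 0.46 on the log2 scale against 0.07 for all genes. Against TpitHT, 9 were at least 2-fold higher in TpitKO (Lama1, Lama4, Lama5, Itga4, Itga11, Itgam, Itgax, Itgb2 and Itgb7, against 4.92% of all genes), and Itga2 alone was lower (1.86%). Both contrasts share the TpitKO library. Between TpitHT and TpitWT, Lama2 was at least 2-fold higher in TpitHT (0.675% of all genes) and Itgb7 at least 2-fold lower (1.11%).

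**Figure D2:**
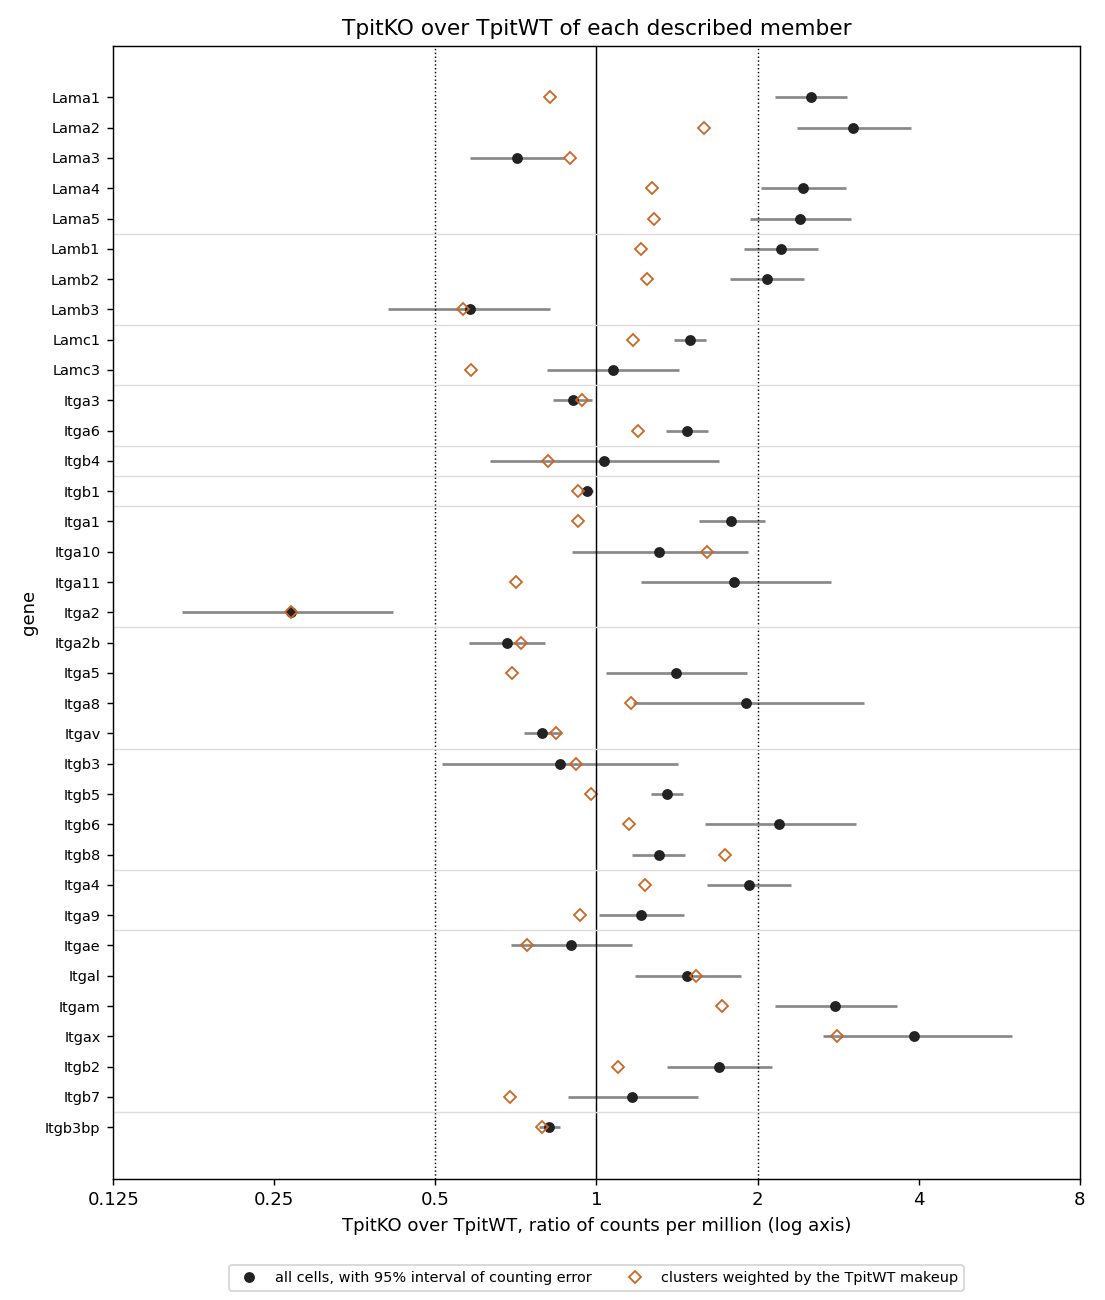
Ratio of CPM in TpitKO over TpitWT for each of the described genes on a log axis, with filled points for all cells and their 95% interval of counting error, and open diamonds for clusters weighted by the TpitWT makeup. Lama1 lies at 2.51 over all cells and at 0.818 with the weighting. Itga2 lies at 0.268 in both, but from different sets of cells. The weighting leaves out the corticotrope-like and melanotrope-like clusters, among others, and TpitKO had no cells in those named. Over the clusters of the weighting without weights, the Itga2 ratio was 0.447.

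The alpha chains of laminin were at 7.43, 8.60 and 15.2 CPM together, 2.05 times as high in TpitKO as in TpitWT (1.89 to 2.23). Lama1 (chr17:67697259-67822647) had 224, 392 and 699 counts, which is 2.09, 2.57 and 5.25 CPM and a ratio of 2.51 (2.16 to 2.93). Of that difference, 89.5% came from the gonadotrope-like cluster, where the level itself was 32.2, 32.4 and 27.0 CPM. The sample held more gonadotrope-like cells in TpitKO, at a level of Lama1 per cluster that was no higher. Lama2 (chr10:26980036-27619758) had 87, 252 and 326 counts, 0.811, 1.65 and 2.45 CPM, a ratio of 3.02 (2.37 to 3.87). The fibroblast-like cluster gave 91.5% of the difference, and within it Lama2 was at 295, 464 and 446 CPM, a ratio of 1.51 (1.18 to 1.94), so TpitHT and TpitKO stood together above TpitWT.

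Lama4 (chr10:38965515-39110188) was at 1.47, 1.42 and 3.58 CPM over all cells, a ratio of 2.43 (2.03 to 2.93), with TpitKO apart from the other libraries. Endothelial-like cells gave 71.5% of the difference and fibroblast-like cells 15.8%. Within endothelial-like cells the level was 106, 91.0 and 127 CPM, and the interval of the ratio, 0.938 to 1.56, included 1. Lama5 (chr2:180176373-180225859) was at 1.06, 1.21 and 2.55 CPM, a ratio of 2.40 (1.94 to 2.9955), to which endothelial-like, stem-cell-like and pituicyte-like cells gave 32.2%, 30.5% and 22.7% of the difference. The pituicyte-like cluster had 9, 2 and 107 cells, and all 45 of its Lama5 counts were from TpitKO. Lama3 went the other way, at 1.99, 1.74 and 1.42 CPM, a ratio of 0.711 (0.582 to 0.869). Its largest loss was from the somatotrope-like cluster 2, which had 2081 TpitWT and 17 TpitKO cells.

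The beta chains together were at 4.78, 5.998 and 9.07 CPM, a ratio of 1.90 (1.71 to 2.11). Lamb1 (chr12:31265234-31329644) was at 2.00, 2.81 and 4.44 CPM, a ratio of 2.21 (1.89 to 2.60), and the difference was 49.98% gonadotrope-like, 39.8% fibroblast-like and 26.1% endothelial-like, offset by other clusters. Lamb2 (chr9:108479736-108490530) was at 2.01, 2.43 and 4.19 CPM, a ratio of 2.08 (1.77 to 2.45), shared by endothelial-like (35.7%) and stem-cell-like cells (34.8%). Lamb3 was at 0.764, 0.755 and 0.443 CPM, a ratio of 0.579 (0.407 to 0.819). The gamma chain Lamc1 (chr1:153218922-153332786) was at 11.7, 11.7 and 17.6 CPM, a ratio of 1.497 (1.40 to 1.60). TpitWT and TpitHT were level for Lamc1, and the gonadotrope-like and endothelial-like clusters gave 63.9% and 47.7% of the difference, while cluster 2 took 36.0% away. Lamc3 was at 0.839, 0.965 and 0.901 CPM, which were indistinguishable between TpitKO and TpitWT by counting error (0.810 to 1.43).

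**Figure D3:**
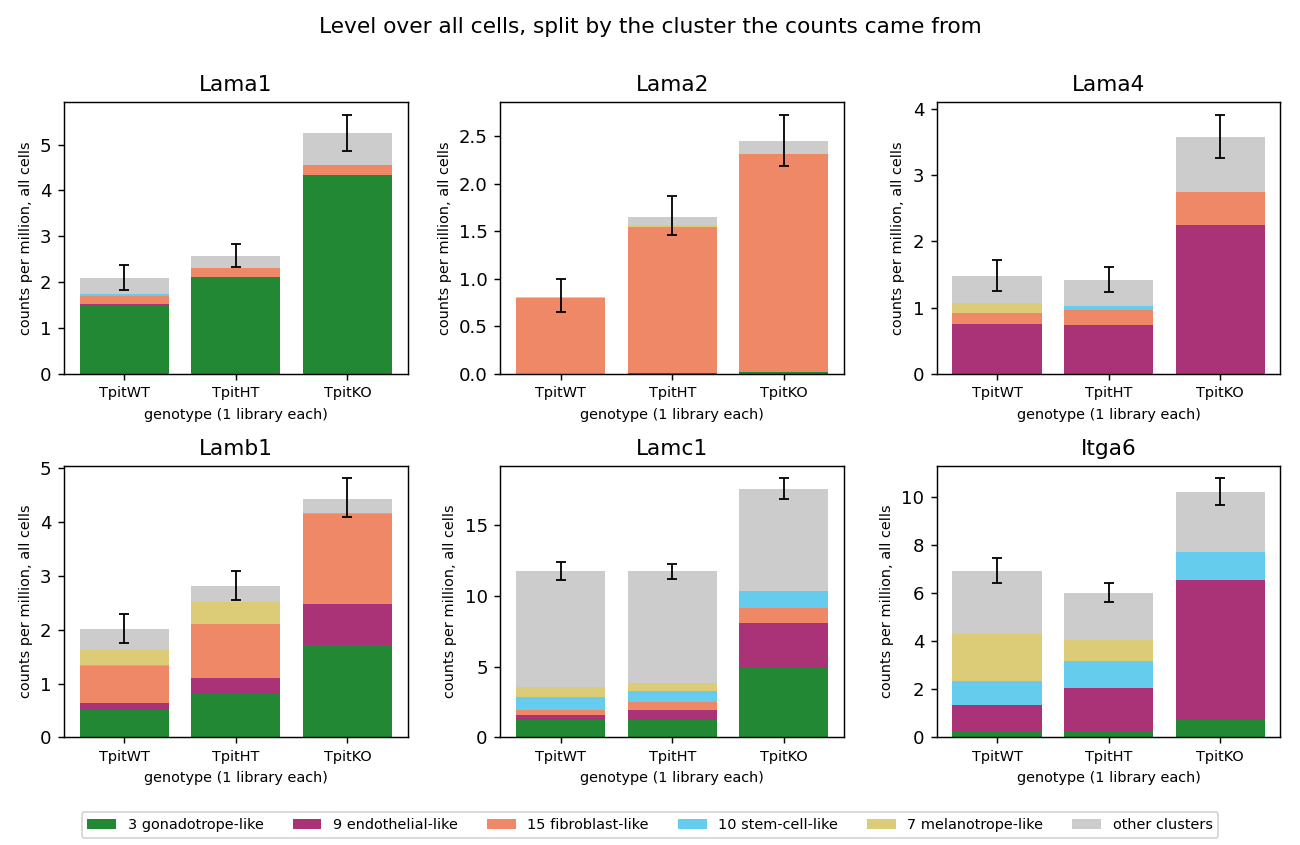
CPM over all cells in each genotype, 1 library each, for 5 laminin chains and Itga6, with bars split by the cluster the counts came from and lines for the 95% Poisson interval of the whole. The gonadotrope-like part is the largest of Lama1, the fibroblast-like part fills nearly the whole bar of Lama2, and the melanotrope-like part of Itga6 is missing in TpitKO.

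Of the laminin receptor subunits, Itga6 (chr2:71745616-71858416) was at 6.92, 5.998 and 10.2 CPM over all cells, a ratio of 1.47 (1.35 to 1.61). The endothelial-like part alone was larger than the whole difference, at 144% of it, and the absent melanotrope-like cells took 59.9% away. With clusters 6 and 7 left out of every library the ratio was 2.05. Itga3 was at 9.97, 8.80 and 8.998 CPM, 0.902 times (0.830 to 0.981), and without clusters 6 and 7 it was 1.17 times. Itgb1 (chr8:128685654-128733200) was at 96.2, 94.0 and 92.5 CPM, a ratio of 0.962 (0.937 to 0.987), and the 3 libraries lay within a few percent of each other. Itgb4 had 32, 29 and 41 counts, with an interval of 0.634 to 1.69.

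Of the collagen receptors, Itga1 (chr13:114953096-115101964) was at 2.67, 2.63 and 4.77 CPM, a ratio of 1.79 (1.55 to 2.06), 68.8% of it from endothelial-like cells, within which it was lower in TpitKO (202, 218 and 162 CPM, ratio 0.802, 0.662 to 0.974). Itga2 (chr13:114833081-114932100) was at 0.783, 0.755 and 0.210 CPM, with 84, 115 and 28 counts and a ratio of 0.268 (0.168 to 0.416). The missing corticotrope-like cells gave 76.5% of that difference, and without clusters 6 and 7 the ratio was 0.544. Itga11 was at 0.345, 0.249 and 0.623 CPM, with a gonadotrope-like part slightly above the whole difference (105%), and Itga10 at 0.447, 0.433 and 0.585 CPM.

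The RGD-binding alpha subunits were at 15.8, 12.4 and 12.8 CPM together, a ratio of 0.813 (0.760 to 0.870), with TpitHT as low as TpitKO. Itgav (chr2:83724397-83806916) was at 11.9, 9.08 and 9.42 CPM, a ratio of 0.793 (0.733 to 0.857), and Itga2b at 3.01, 2.42 and 2.05 CPM, a ratio of 0.681 (0.577 to 0.802) that became 1.03 without clusters 6 and 7. Itga5 was at 0.662, 0.545 and 0.931 CPM and Itga8 at 0.233, 0.335 and 0.443 CPM, for Itga8 a ratio of 1.90 (1.17 to 3.17). The beta subunits of this group were higher in sum, at 17.97, 18.6 and 24.4 CPM. Itgb5 (chr16:33829665-33949338) was at 12.5, 12.5 and 16.99 CPM, a ratio of 1.35 (1.27 to 1.45), with 66.8% of the difference from gonadotrope-like cells, where its level was 23.3, 17.6 and 25.3 CPM. Itgb8 (chr12:119158022-119238802) was at 4.61, 4.95 and 6.03 CPM, a ratio of 1.31 (1.17 to 1.47). Itgb6 was at 0.503, 0.663 and 1.10 CPM, a ratio of 2.19 (1.59 to 3.05), with 71.4% of the difference gonadotrope-like. Itgb3 had 33, 71 and 35 counts.

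The leukocyte subunits were at 5.13, 4.43 and 8.62 CPM together, a ratio of 1.68 (1.52 to 1.86). Itgam (chr7:128062640-128118491) had 77, 126 and 267 counts, 0.718, 0.827 and 2.00 CPM, a ratio of 2.79 (2.16 to 3.65). The macrophage-like cluster 19, with 27, 40 and 48 cells, gave 61.5% of the difference. Itgax (chr7:128129547-128150657) had 31, 69 and 151 counts, 0.289, 0.453 and 1.13 CPM, a ratio of 3.92 (2.65 to 5.97). Cluster 8 gave 53.1% of it and leukocyte-like cluster 16, with 72, 17 and 161 cells, 39.1%. Itgb2 was at 1.09, 0.906 and 1.85 CPM (ratio 1.69, 1.35 to 2.13), Itgal at 1.13, 0.833 and 1.67 CPM (1.48, 1.18 to 1.86), and Itgae at 1.06, 1.17 and 0.953 CPM. Of the Itgal difference, somatotrope-like cluster 5 gave 99.0% and leukocyte-like cluster 16 gave 89.2%, while somatotrope-like cluster 2 took 100.4% away. Itgb7 was at 0.830, 0.217 and 0.968 CPM, low in TpitHT alone, the library with 17 cells in cluster 16. Itga4, which pairs with Itgb1 or Itgb7 and binds VCAM1, was at 1.60, 0.971 and 3.08 CPM, a ratio of 1.92 (1.61 to 2.31), with 51.0% of the difference from gonadotrope-like and 28.2% from leukocyte-like cells. Itga9 was at 1.85, 1.66 and 2.24 CPM.

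Within a single cluster, a member was compared if TpitWT and TpitKO each gave 50 cells or more. In endothelial-like cells several laminin and integrin genes were higher in TpitKO. Of 14 members with 30 counts there, 3 were at least 2-fold different between TpitKO and TpitWT (Lamc1, Lamb1 and Itga6, all higher), against 9.59% of all genes in that cluster. Lamc1 had 38, 105 and 418 counts, 50.9, 86.0 and 178 CPM, a ratio of 3.50 (2.51 to 5.02), and its share of cells with a count was 11.1%, 23.8% and 41.8%. Lamb1 had 14, 44 and 102 counts, 18.7, 36.1 and 43.5 CPM, a ratio of 2.32 (1.32 to 4.39). Itga6 had 115, 276 and 771 counts, 154, 226 and 329 CPM, a ratio of 2.14 (1.75 to 2.62). In each of the 3 genes TpitHT lay between the other libraries, and for Lamc1 and Itga6 the interval of each pairwise ratio with TpitKO excluded 1, while for Lamb1 that against TpitHT did not (0.839 to 1.76). Itgb1 was at 234, 250 and 273 CPM there.

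The endothelial-like cells of the 3 libraries differed in other respects as well. The 6 endothelial markers summed to 6171, 7660 and 6557 CPM there, a much smaller spread than that of Lamc1. The 4 somatotrope markers summed to 95011, 39847 and 27095 CPM, the 4 red cell markers to 929, 14694 and 1578 CPM, and the 5 mural markers to 202, 239 and 152 CPM, with Acta2 and Myh11 at 0. The 4 lactotrope markers summed to 38180, 9728 and 24135.5 CPM and the 5 corticotrope markers to 3220, 1301 and 10.7 CPM. The 5 fibroblast markers summed to 60.2, 19.7 and 21.3 CPM and the 4 cycling markers to 62.9, 176 and 37.5 CPM. With hormone and mitochondrial counts left out of the total, the ratios were 3.19 for Lamc1, 2.11 for Lamb1 and 1.94 for Itga6. The part of the remaining differences in these markers was not tested. The summed laminin chains were at 264, 303 and 457 CPM in this cluster, a ratio of 1.73 (1.49 to 2.03).

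In fibroblast-like cells none of 12 members was 2-fold different, against 11.4% of all genes. Lamc3 (chr2:31887291-31946539) had 81, 130 and 112 counts, 281, 257 and 164 CPM, a ratio of 0.582 (0.434 to 0.785), so TpitKO was the low library. Itga1 went the other way at 66.03, 73.0 and 113 CPM, a ratio of 1.71 (1.02 to 2.99). Lamc1 was at 139, 178 and 208 CPM, a ratio of 1.49 (1.05 to 2.18), Lamb1 at 257, 299.97 and 323 CPM, and Itgb1 at 250.2, 282 and 320.4 CPM. The 5 fibroblast markers summed to 16507, 21365 and 19965 CPM, the 5 mural markers to 285, 434 and 666 CPM and the 5 corticotrope markers to 24789, 2078 and 14.6 CPM, and the part of these in the differences was not tested. The cluster had 57, 99 and 144 cells. Its summed laminin chains, 1233.7, 1450.5 and 1401.5 CPM, were the highest of any cluster.

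In gonadotrope-like cells, which gave 46.6% of the laminin difference over all cells, the summed chains were at 76.9, 69.99 and 76.5 CPM, a ratio of 0.994 (0.890 to 1.11). The exception among 16 members was Itga2, the only one past 2-fold against 7.18% of all genes. It had 20, 59 and 16 counts, 3.97, 5.92 and 0.748 CPM, a ratio of 0.188 (0.0912 to 0.382). TpitKO lay below both other libraries, and the 5 gonadotrope markers summed to 153008, 192653 and 190626 CPM. The 5 corticotrope markers summed to 2321, 1623 and 19.1 CPM and the 5 melanotrope markers to 2389, 1711.5 and 102 CPM in this cluster, also lowest in TpitKO. The part of these markers in the Itga2 result was not tested. In stem-cell-like cells, none of 12 members was past 2-fold (4.74% of all genes were). Itgb8 stood at 51.4, 47.9 and 74.3 CPM, a ratio of 1.45 (1.10 to 1.92), and the nuclear gene Itgb3bp at 41.3, 40.0 and 23.4 CPM, a ratio of 0.567 (0.388 to 0.828). The 7 stem cell markers summed to 3950, 3893 and 2997 CPM there, the 4 somatotrope markers to 39197, 37315 and 22116 CPM, the 5 corticotrope markers to 1989, 879 and 6.57 CPM and the 4 cycling markers to 33.1, 2.498 and 3.29 CPM, and the part of these in the results was not tested. The summed laminin chains were at 259, 252 and 306 CPM there, Lamb2 at 87.3, 82.9 and 107 CPM, Itga6 at 71.03, 71.6 and 63.2 CPM and Itgb1 at 149, 118 and 130.2 CPM.

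In macrophage-like cluster 8, Itgb8 and Itgax were past 2-fold of 11 members, against 6.52% of all genes. Itgb8 had 17, 55 and 99 counts, 15.3, 33.7 and 51.1 CPM, a ratio of 3.35 (1.99 to 5.98). Itgax had 26, 55 and 92 counts, 23.3, 33.7 and 47.5 CPM, a ratio of 2.04 (1.31 to 3.28). For both, TpitHT lay between the other libraries. The macrophage markers were level, at 16099, 15854 and 16300 CPM, and so were Itgb2 at 48.5, 41.0 and 46.5 CPM and Itgb5 at 387, 390.1 and 349 CPM. Itgb1 was at 102, 106 and 101 CPM and Itga6 at 70.9, 72.9 and 79.5 CPM. The markers of other leukocytes summed to 249, 247 and 335 CPM, the 4 somatotrope markers to 59196, 34717 and 14230 CPM, the 4 lactotrope markers to 10229.5, 7094 and 21371 CPM and the 4 cycling markers to 40.4, 17.1 and 2.07 CPM. The part of these in the Itgb8 and Itgax results was not tested. In macrophage-like cluster 19, which was too small for this comparison, Itgam had 23, 68 and 134 counts and was found in 51.9%, 65.0% and 87.5% of 27, 40 and 48 cells, with Itgb5 at 604, 849 and 514 CPM and Itgb1 at 126, 139 and 129.97 CPM. In the 107 pituicyte-like cells of TpitKO, Itgb5 was at 149.65 CPM, Itgb1 at 112 CPM and Lamc1 at 99.3 CPM.

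In leukocyte-like cluster 16, 4 of 10 members were past 2-fold, against 21.2% of all genes, so the background there was high. Itgb1 was at 96.1, 57.4 and 221 CPM, a ratio of 2.30 (1.59 to 3.42), Itgb2 at 90.6, 143 and 165 CPM and Itgal at 68.7, 28.7 and 124 CPM, while Itgb7 was at 181, 143 and 143 CPM and Itga4 at 140.1, 105 and 156 CPM. Itgax had 0, 11 and 44 counts, which is 0, 105 and 57.7 CPM. Itgam had 6, 13 and 51 counts, 16.5, 124 and 66.8 CPM, and Itgae 1, 8 and 38 counts, 2.75, 76.5 and 49.8 CPM. For these 3 genes TpitWT was the low library, and TpitHT stood above TpitKO with intervals of the ratio that included 1. The macrophage markers were lowest in TpitWT too, summing to 816, 1913 and 3363 CPM, and those of other leukocytes to 1324, 736 and 1850 CPM. Their part was not tested. The TpitHT values rest on 17 cells.

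**Figure D4:**
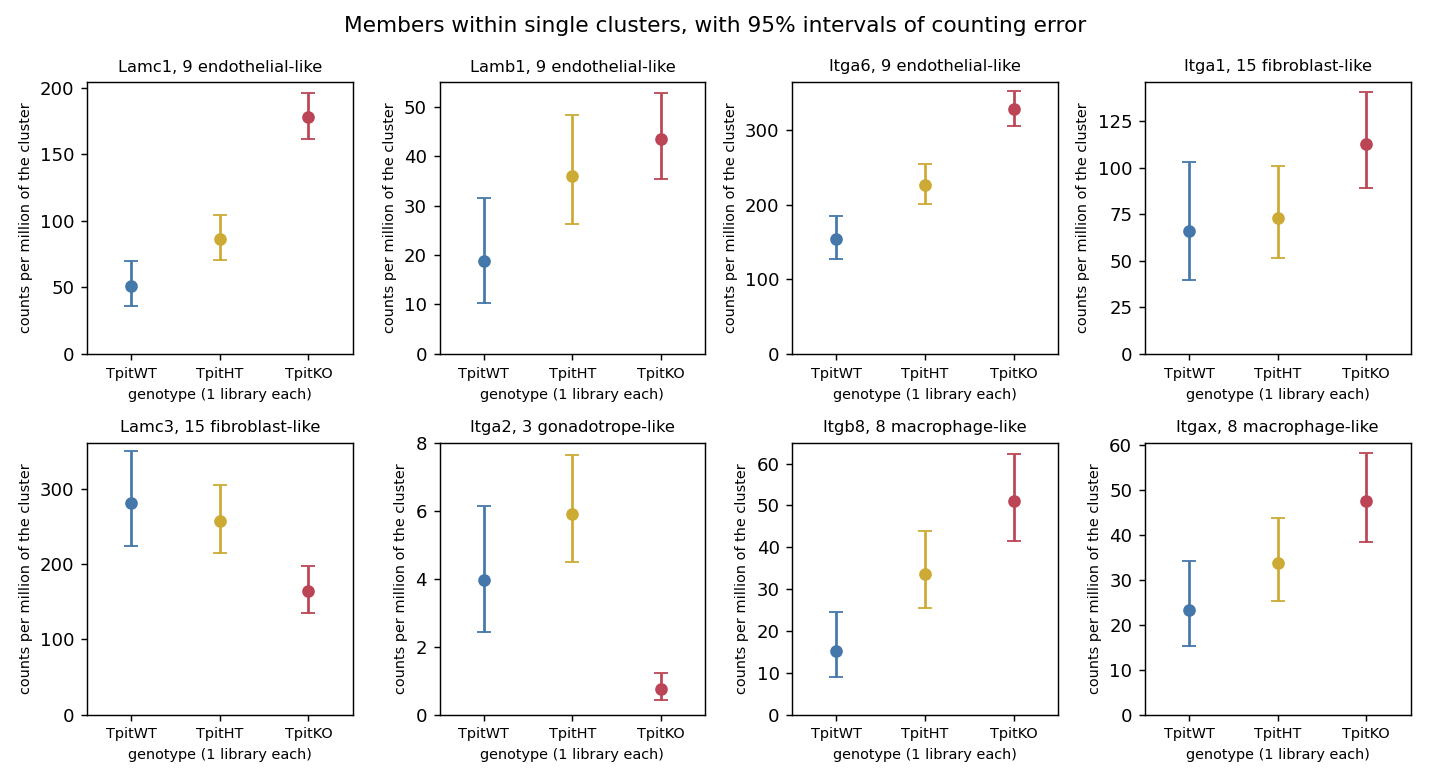
CPM of the cluster for 8 pairs of gene and cluster in the 3 genotypes, 1 library each, with 95% Poisson intervals. Lamc1 in endothelial-like cells goes from 50.9 to 86.0 to 178, Itgb8 in macrophage-like cluster 8 from 15.3 to 33.7 to 51.1, and Itga2 in gonadotrope-like cells is lowest in TpitKO at 0.748.

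Of the hormone clusters, the gonadotrope-like one held 20.1% of laminin counts, more than any other cluster. Itgb1 was at 146, 140 and 132 CPM in lactotrope-like cluster 0, 60.5, 47.6 and 53.8 in somatotrope-like cluster 1, 80.4, 66.7 and 74.2 in lactotrope-like cluster 4, 90.6, 83.1 and 90.7 in gonadotrope-like and 116, 62.6 and 109 in thyrotrope-like cells. In corticotrope-like and melanotrope-like cells, which TpitKO lacked, it was at 116 and 94.1 CPM and at 92.4 and 87.9 CPM in TpitWT and TpitHT. Those clusters also carried Itgav at 27.0 and 22.5 CPM (corticotrope-like), Itgb5 at 33.7 and 12.4 CPM (corticotrope-like) and Itga6 at 34.5 and 15.6 CPM (melanotrope-like). For Itgb5 and Itga6 the Poisson intervals of the libraries did not meet, 29.8 to 38.0 against 10.3 to 14.8 CPM and 30.0 to 39.5 against 13.1 to 18.5 CPM. Itga3 in cluster 0 was at 13.3, 12.5 and 12.2 CPM, Itgav in cluster 1 at 12.4, 6.46 and 9.65 CPM, in cluster 4 at 8.07, 6.43 and 7.68 CPM, and Lamc1 in thyrotrope-like cells at 27.1, 13.9 and 22.4 CPM. Somatotrope-like cells were mostly in cluster 2 in TpitWT and TpitHT and in cluster 5 in TpitKO. Itgav was at 12.4 and 9.43 CPM in cluster 2 of TpitWT and TpitHT, and at 8.96 CPM in cluster 5 of TpitKO. Itgb1 was at 53.4 and 54.0 CPM there and at 51.5 CPM in TpitKO.

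Within these clusters, the number of members past 2-fold was set beside the share of all genes. In lactotrope-like cluster 0 it was 1 of 14 (Itgb5), against 4.26% of all genes. Itgb5 had 40, 31 and 19 counts, 1.34, 0.611 and 0.646 CPM, so TpitHT was as low as TpitKO and the ratio of TpitKO to TpitHT was 1.06. Itgae was at 2.77, 2.82 and 1.43 CPM there, a ratio of 0.515 (0.347 to 0.755), and Itga2b at 3.14, 1.97 and 1.94 CPM. In somatotrope-like cluster 1 it was 2 of 10 (Itga1, lower, and Itgb8, higher), against 8.26%. Itga1 had 26, 11 and 8 counts, 1.88, 0.597 and 0.822 CPM, so against TpitHT it was not lower in TpitKO. Itgb8 was at 3.25, 3.09 and 6.57 CPM, a ratio of 2.02 (1.36 to 3.03), and Itgb5 at 3.25, 4.61 and 6.47 CPM, a ratio of 1.99 (1.34 to 2.99). In lactotrope-like cluster 4 it was 1 of 9, Itgb5, against 5.07%, with 20, 22 and 17 counts, 2.60, 2.44 and 0.842 CPM, a ratio of 0.324 (0.159 to 0.651). In unnamed cluster 13, Itgb1 was at 103, 89.4 and 57.9 CPM, a ratio of 0.563 (0.379 to 0.835). Itgb3bp was at 49.3, 40.3 and 37.98 CPM in cluster 0, 34.6, 33.5 and 30.2 in gonadotrope-like cells, and 39.8 and 30.2 CPM in the corticotrope-like cells of TpitWT and TpitHT. Itgb3bp, over all cells at 36.7, 32.7 and 30.0 CPM and a ratio of 0.816 (0.781 to 0.853), was at 54.2, 52.2 and 35.7 CPM in thyrotrope-like cells.

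Other genes of the basement membrane, listed together with wider matrix genes and laminin receptors, were also higher in TpitKO over all cells. The list held Nid1, Nid2, Hspg2, Agrn, Col4a1, Col4a2, Col18a1, Ntn4, Tinagl1 and Sparc, and the receptors Dag1 and Bcam. It also held Fn1, Vtn, Spp1 and Tnc, matrix genes that are not particular to basement membranes. Of 16 listed genes 15 had 50 counts, and all 15 had a TpitKO to TpitWT ratio above 1, against 62.2% of all genes. At least 2-fold higher were 9, against 5.79% of all genes. Vtn (4.42), Spp1 (4.21) and Fn1 (2.60) were among the 9. The median of the list was 1.34 on the log2 scale against 0.07 for all genes. Against TpitHT all 15 were above 1 as well (63.8% of all genes were) and 5 were at least 2-fold higher (4.92% of all genes). All of the list but Nid2, Tnc and Fn1 had their highest level in endothelial-like or fibroblast-like cells, whose shares were larger in TpitKO. Spp1 was also at 394, 670 and 520 CPM in gonadotrope-like cells, whose share was larger in TpitKO too. The part of these shares in the ratios was not tested. These ratios over all cells are not weighted by makeup. Col4a1 and Col4a2, the collagen IV chains of nearly all basement membranes, were at 9.15, 13.05 and 28.0 CPM and at 4.26, 6.31 and 13.9 CPM. The laminin linker Nid1 was at 2.43, 2.97 and 6.30 CPM and the proteoglycan Hspg2 at 3.46, 4.36 and 9.69 CPM. The laminin receptors outside the integrin family were less apart, Dag1 at 30.7, 31.7 and 37.8 CPM and Bcam at 4.32, 4.95 and 7.53 CPM. In endothelial-like cells Col4a1 was at 828, 1186 and 1244 CPM and Col4a2 at 356, 551 and 637 CPM, ratios of 1.502 (1.38 to 1.64) and 1.79 (1.57 to 2.05). Nid1 was level there at 143, 147 and 150 CPM. Within gonadotrope-like cells, ratios with intervals below 1 were 0.353 for Col4a1, 0.272 for Col4a2, 0.118 for Nid1 and 0.684 for Col18a1. Those of Dag1, Tinagl1 and Sparc were 0.659, 0.495 and 0.298 there, also with intervals below 1. Spp1 (1.32) and Ntn4 (7.53) had intervals above 1 in that cluster.

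The genes of the integrin adhesion complex, from cytoplasmic linkers to membrane partners, lay closer to the median of all genes. Of 24 listed genes 23 had 50 counts, and 16 of them were above 1 and 7 below. At least 2-fold higher was 1, against 5.79% of all genes, and the median was 0.13 on the log2 scale. With hormone and mitochondrial counts left out of the totals 12 were above 1. The share of all genes above 1 fell from 62.2% to 42.3% with that change. The gene that was 2-fold higher was Lims2, an adaptor of integrin-linked kinase with its highest level in endothelial-like cells, at 1.12, 1.25 and 2.75 CPM. Tln1, which activates integrins, was at 61.3, 57.5 and 73.2 CPM, Tln2 at 12.3, 10.9 and 8.86 CPM and Ilk at 34.0, 36.8 and 35.5 CPM. Fermt3, the kindlin of blood cells, was at 3.14, 3.69 and 4.60 CPM.

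Some members share their stretch of genome with another gene, and whether the counting used strand is not given in the sources used here. Lama2, Lama3, Lamc3 and Itga8 overlap an antisense gene in GENCODE M21, and Itga1, Itga10 and Itgam overlap a protein-coding model on their own strand. On the other strand, Itga4 overlaps Cerkl, Itgb3bp overlaps Pgm1, and Itgav and Itgb4 each overlap a noncoding gene. Without strand, reads of the overlapping genes cannot be told apart.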

How the data were processed

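Droplet single-cell RNA sequencing of whole pituitaries was analysed in 3 libraries, 1 each of TpitWT, TpitHT and TpitKO. Without giving each a role, the submitters' processing notes list Seurat 3.1, Cell Ranger 5 and DESeq2, with mm10 and GRCm38 as builds. The authors deposited a table of summed counts, 1 column for each of 61 pairs of cluster and genotype and 55403 gene rows, and whether reads were collapsed to molecules is not given in the sources used here. The deposited table of scaled values, of unit signal, equals the counts times 1 factor per combination and served as an alternative. Numbers of cells with a count and the deposited cluster of each barcode were used too, and 305 other per-sample columns were not used. Rows of 1 symbol were added.

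CPM is counts per 1000000 counts of the genotype, or of the genotype in a cluster. Intervals are exact at 95%: Poisson for CPM, Clopper-Pearson for shares of cells and conditional binomial for ratios. They take counts as independent, so they are too narrow where counts gather in few cells. Ratios over all cells needed 50 counts in both genotypes together, and those within clusters 30 counts and 50 cells in each genotype, which 13 clusters gave. The 30 counts were not required of the listed genes of the basement membrane and matrix. With 1 library per genotype no test was run. Values came from sums, so no doublets were removed beyond what the authors did, and means replaced medians. The scripts (Python 3.11.15, pandas 2.3.3, NumPy 2.4.6, SciPy 1.17.1) were tested on simulated counts. Coordinates of all 39 genes are the same in GENCODE M21.

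Itgb3bp was kept as a member but left out of the integrin sum. Members and gene lists were chosen with earlier results of these data known. Genes were named with values if at 5 CPM over all cells, if 1.5-fold apart with 100 counts, or if among the highest 3 of a named cluster. Within a cluster up to 3 were named each way, if 1.5-fold apart with an interval excluding 1 and the same direction against TpitHT. Lower members outside this rule, such as Itgb3, Itgb4 and Itga10, were given for completeness. The values of 1 laminin chain are not reported here, although it is counted among the members and in the laminin sum.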

Additional observations from a re-analysis of the deposited data

Results flagged for a closer look

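Itgb1 and Itgb5 went opposite ways in different clusters between TpitKO and TpitWT, which is why they are listed here. For Itgb1 the ratio was 2.30 in leukocyte-like cluster 16 and 0.563 in unnamed cluster 13. For Itgb5 it was 1.99 in somatotrope-like cluster 1 and 0.324 in lactotrope-like cluster 4. Each value rests on 1 library per genotype, and the difference between clusters was not tested.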

How the results depend on the processing

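No paired analysis was possible because only 1 library represents every genotype. The number of members at least 2-fold higher in TpitKO than in TpitWT over all cells, 9, became 5 with the authors' scaled values averaged over clusters, 1 with the TpitWT makeup of clusters, 1 with a pseudocount of 1 CPM and 2 over the clusters of that makeup without weights. The number at least 2-fold lower, 1, became 3 with scaled values, 0 without clusters 6 and 7, 2 over the clusters of the makeup without weights, 2 without clusters 3, 9 and 15, 1 with no filter (no ratio was formed where both genotypes had 3 counts or fewer), 0 with at least 200 counts and 0 with the pseudocount. The laminin ratio of 1.68 was 1.26 with scaled values, 1.54 without hormone and mitochondrial counts in the total, 1.12 with the makeup, 1.31 over its clusters without weights and 1.53 against TpitHT. The integrin ratio of 1.06 was 1.09 with scaled values, 0.971 without hormone and mitochondrial counts, 1.10 per cell, 1.12 without clusters 6 and 7, 0.961 with the makeup, 0.929 over its clusters without weights, 1.12 against TpitHT and 1.01 with Itgb3bp added. Over all cells, 42 of 360 values of single members lay on the other side of 1 from the main value, and 18 of these belong to members whose main interval includes 1, such as Lamc3, Itgb4 and Itgb7. The other 24 were as follows. With scaled values they were Itga4 (0.977), Itga5 (0.768), Itga8 (0.777), Itga9 (0.980), Itgb1 (1.05), Lama1 (0.695) and Lama3 (1.07). With the makeup they were Itga1 (0.922), Itga11 (0.707), Itga5 (0.695), Itga9 (0.933), Itgb5 (0.976) and Lama1 (0.818), and over its clusters without weights Itga5 (0.892) and Itga9 (0.930). Without clusters 6 and 7 they were Itga2b (1.03) and Itga3 (1.17), and against TpitHT Itga3 (1.02) and Itgav (1.04). Without clusters 3, 9 and 15 they were Itga11 (0.852), Itga5 (0.771), Itga6 (0.762), Lamb1 (0.497) and Lamc1 (0.993). Scaled values shifted the median of all genes by -0.10 on the log2 scale. Leaving out clusters 3, 9 and 15 or 12, 16 and 18, using the makeup's clusters without weights and adding Itgb3bp were chosen after seeing the data, and the cause of the shifts was not tested. Within clusters, 513 of 524 values stayed within the counting interval of the main value and 11 left it. On the other side of 1 lay 62 values, all of members whose main interval includes 1. The cluster with the highest level stayed for 24 of 36 members by share of cells with a count, 33 with genotypes weighted equally and 30 by counts per cell.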
